A study of Mus musculus with 2 samples.

Results

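The 240 regions described here are the highest-scoring 10% of the FOS peaks of mouse granulosa cells. They were chosen by the peak score, the whole number that the authors' peak file gives each of 2374 narrow peaks, as those at or above its 90th percentile, 151. By this rule 10.1% of all peaks are members, and that share is fixed by the choice. The score chose the members, so scores below are a description and carry no test. The series has 2 libraries from granulosa cells, the somatic cells around the oocyte, of wild-type female mice 25 days old. All mice had been primed with PMSG, a gonadotropin that makes follicles grow, and had received hCG, which stands in for the ovulatory LH surge, 3 h before collection. The cells were released by puncturing follicles. The FOS library was immunoprecipitated with a FOS antibody and gave the peaks. The other names no antibody in its label and was not analysed here. There were no replicates and no untreated cells, and neither the strain nor the number of animals behind the library is stated in the sources used here. Read counts are not part of the files, and the depth is therefore unknown.

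FOS pairs with a JUN protein to form the transcription factor AP-1, which binds a short DNA sequence that reads TGACTCA on one strand and TGAGTCA on the other. Related dimers of ATF and CREB proteins bind the longer cAMP response element, TGACGTCA. In granulosa cells FOS is among the genes switched on early after the ovulatory hormone surge, and AP-1 commonly binds distal enhancers as well as promoters.

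The sequence of promoter windows under highest-scoring peaks was examined first, because the score did not choose members by it. Promoter windows of 300 bases (250 before and 50 after the transcription start site, TSS) came from RefSeq, build GRCm38.p6, and a window counted where a peak covered at least 150 of its bases. The highest-scoring peaks covered 29 windows, which belong to 26 peaks. The windows were set by overlap and not by the authors' class. Some of the 26 peaks are therefore intronic, intergenic or exonic, and some promoter-class members, such as that of Nt5dc3, had no counted window. The other 214 members were not searched, so the shares below describe only members over such windows. The full 250 bases before the TSS are shown for Srxn1, Tnfaip6 and Ddit3, 3 promoters of stress and ovulatory genes, with TGACTCA or TGAGTCA in capitals.
Srxn1 (chr2:152105274-152105523, + strand): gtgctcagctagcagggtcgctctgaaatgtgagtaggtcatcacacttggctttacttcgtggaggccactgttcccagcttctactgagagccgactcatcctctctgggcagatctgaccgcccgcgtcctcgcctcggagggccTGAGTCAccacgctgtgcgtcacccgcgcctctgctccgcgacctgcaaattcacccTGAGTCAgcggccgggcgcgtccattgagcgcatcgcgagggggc
Tnfaip6 (chr2:52037863-52038112, + strand): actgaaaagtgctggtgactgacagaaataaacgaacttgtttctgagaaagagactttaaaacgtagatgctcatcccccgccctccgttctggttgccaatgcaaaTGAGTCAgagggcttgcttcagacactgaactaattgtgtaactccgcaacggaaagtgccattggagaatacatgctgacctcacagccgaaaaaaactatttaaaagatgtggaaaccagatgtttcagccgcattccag
Ddit3 (chr10:127290543-127290792, + strand): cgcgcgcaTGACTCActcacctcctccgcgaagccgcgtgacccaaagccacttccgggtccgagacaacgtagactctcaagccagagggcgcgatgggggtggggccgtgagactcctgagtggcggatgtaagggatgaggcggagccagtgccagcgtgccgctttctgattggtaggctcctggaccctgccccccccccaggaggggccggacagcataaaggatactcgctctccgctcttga

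Srxn1, which encodes the antioxidant enzyme sulfiredoxin, held the AP-1 letters at 2 places, starting 102 and 45 bases before the TSS. Tnfaip6, whose product (TSG-6) modifies hyaluronan while the cumulus expands, held them once, 142 bases before the TSS. In Ddit3, which encodes the stress-induced factor CHOP, they began 242 bases before the TSS. The middle of the nearest copy lay 21 bases from the peak centre at Srxn1, 35.5 bases at Tnfaip6 and 32 bases at Ddit3. Shorter stretches, the letters in capitals with 9 bases on either side, are shown for further members to let the flanks be compared. The window of Smim14, which encodes a small membrane protein, belongs to an alternative start inside the gene, and that of D730003I15Rik, a noncoding gene, lies under a peak assigned to Atf3.
Rtn4 (chr11:29692904-29692928, + strand): ccgggaaggTGAGTCAcgccaaact
Kbtbd7 (chr14:79426536-79426560, + strand): gggaaacagTGAGTCAgccggggac
Myl12a (chr17:71002655-71002679, - strand): cctagacagTGAGTCAccctagctt
Smim14 (chr5:65484090-65484114, - strand): gccttaggaTGAGTCAtatcctgag
D730003I15Rik (chr1:191224434-191224458, + strand): cggggctgaTGACTCAcgcagtcgg
Ndufa5 (chr6:24527617-24527641, - strand): gttcttaggTGACTCAggggcagca
Zfp869 (chr8:69717002-69717026, - strand): caatggaatTGAGTCAtccacgcag
Epb41l1 (chr2:156475453-156475477, + strand): cacagaggcTGAGTCAcctcttctg
Epb41l1 (chr2:156475467-156475491, + strand): cacctcttcTGAGTCAgggatcctc
Csrnp1 (chr9:119983110-119983134, - strand): gaggcttggTGAGTCAcggaccccg
Csrnp1 (chr9:119983022-119983046, - strand): ccactgccgTGAGTCAccggggcgc
Thrap3 (chr4:126202724-126202748, - strand): gacgtccggTGAGTCAggagagaga

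In 20 of the 29 windows under the highest-scoring peaks the AP-1 letters were present (69.0%, exact 95% interval 49.2 to 84.7). Of the 237 windows under the remaining peaks 69 held them (29.1%, interval 23.4 to 35.3), and of all 32817 windows 5.20% did. In 2 counts chosen after seeing the data, by peak and over fully covered windows, the order was the same. Counted by peak, 19 of 26 highest-scoring peaks (73.1%) and 65 of 200 remaining peaks (32.5%) had them. Where windows were covered over all 300 bases, the share was 10 of 11 (90.9%) for highest-scoring peaks against 16 of 47 (34.0%) for remaining peaks. At least 2 copies stood in 5 of the 29 windows against 2 of the 237. The median distance from the peak centre to the nearest copy was 34 bases in both groups, over 19 highest-scoring and 65 remaining peaks. These shares are descriptions without a test, and 2 windows on opposite strands can share a copy, as those of Zfp869 and Gm51532 do.

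Across score groups the share with AP-1 letters was 16.4% of 61 windows at scores of 15 to 44 and 32.1% of 78 windows at 46 to 66. It was 34.0% of 53 windows at 67 to 95 and 35.6% of 45 windows at 99 to 147. The members, whose promoter windows lay under scores of 155 to 374, stood above all 4 lower groups, although the interval of the members (from 49.2%) overlaps that of the group below them (to 51.2%). The cAMP response element was found in 0 of the 29 windows of the members, for which the exact 95% interval has an upper limit of 11.9%. It was present in 25 of 237 windows of the remaining peaks (10.5%, exact 95% interval 6.94 to 15.2). The limit of the members lies within that interval, and the difference was not tested. Among windows covered over all 300 bases the counts were 0 of 11 and 2 of 47 (4.26%). For contrast, 3 promoters under remaining peaks with these letters are shown, with the letters in capitals. Their peaks scored 146 at Maff, which encodes a small MAF protein, 133 at Myl6, a myosin light chain gene, and 113 at Tyw1.
Maff (chr15:79347482-79347507, + strand): ctggggcggTGACGTCActgcatgac
Myl6 (chr10:128493891-128493916, - strand): ggcggagggTGACGTCAtgcgccatg
Tyw1 (chr5:130255596-130255621, + strand): gttctgtgaTGACGTCAtttacaggc

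**Figure D1:**
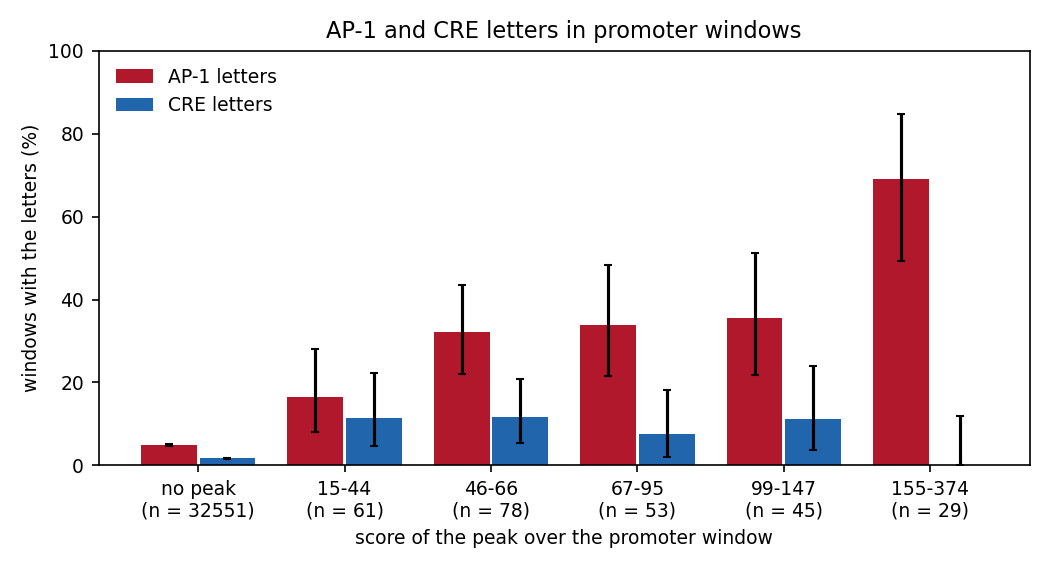
Share of 300-base promoter windows that hold the AP-1 letters TGACTCA or the cAMP response element TGACGTCA on either strand, in percent, by the score of the peak over the window, with windows under no peak at the left. Bars carry exact 95% intervals for counting error, and the highest group, 69.0% with AP-1 letters and none with the response element, holds the highest-scoring peaks.

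A further 8 motifs were searched on both strands, and their shares are descriptions without a test. The E-box letters CACGTG stood in 7 of 29 windows of the highest-scoring peaks (24.1%), against 17.7% of the remaining and 7.15% of all windows. The TEAD letters GGAATG were in 20.7% for the highest-scoring peaks, against 11.8% of the remaining and 14.7% of all windows. TGACNNNGC, the letters of MAF and NRF2, can share its first letters with an AP-1 match and was in 13.8%, against 22.4% of the remaining and 12.4% of all windows. Only this form was searched, so TGAGTCAGC, which the Kbtbd7 stretch above holds, was not counted. The NF-Y letters CCAAT were in 34.5%, against 43.9% of the remaining and 37.4% of all windows. The CEBP letters TTGCNNAA were in 2 of the 29 windows (6.90%, against 10.5% of the remaining and 10.8% of all windows), and the RUNX letters TGTGGTT in 1 (3.45%, against 5.06% and 5.27%). The NR5A letters CAAGGTCA, bound by factors of the steroidogenic factor family, were in 1 window (3.45%, against 1.69% and 1.56%). The GATA letters AGATAA were in 2 (6.90%, against 5.06% and 11.2%).

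The scores of the members were unevenly spread. Their range was 151 to 2234 with a median of 184.5 and quartiles of 163 and 231.75. Only 10 members scored 400 or more, 75 scored from 200 to below 400, and 155 (64.6%) scored under 200. At the limit itself stood 14 peaks of score 151, among them those nearest to Msmo1, Kdm6b and Itgav. Just outside were 2 intergenic peaks of score 150, nearest to Dip2c and Rims4. The median width was 457 bp for members (range 311 to 1039) and 333 bp for the remaining peaks (range 268 to 1114). Width comes from the same peak call as the score, and across all 2374 peaks of this 1 library the Spearman correlation of both was 0.47.

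The 10 highest scores were those of peaks nearest to Gmpr (2234, inside Atxn1), Twsg1 (1277), LOC100043315 (808, inside Nell2), Kdm1a (652), Pomc (637, inside Efr3b), Htra3 (577), Tax1bp1 (544, inside Jazf1), Arhgap28 (408), Serpinb9c (405) and Cyb561 (400, inside Tanc2). None of them was a promoter peak. Atxn1, which encodes the transcriptional corepressor ataxin-1, held a further member of score 159 in intron 2 of 7.

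**Figure D2:**
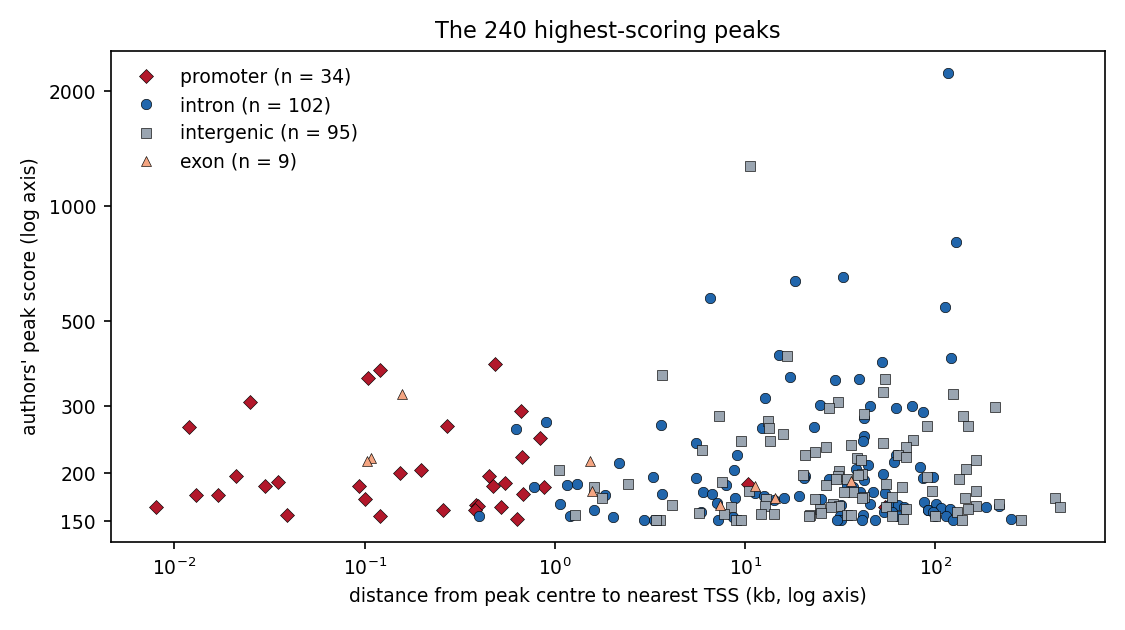
Peak score (log axis) of the 240 highest-scoring peaks against the distance in kb between peak centre and nearest TSS (log axis), with symbols for the authors' genomic class. The promoter peaks reach 386 at most, while peaks above 400 are intronic or intergenic and lie 6.56 kb or more from a TSS.

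In class and distance the highest-scoring peaks were not distinguished from the remaining ones by any test. Introns held 102 of 240 members (42.5%) against 44.9% of 2134 remaining peaks, and 95 members were intergenic (39.6% against 34.9%). The promoter class held 34 members (14.2%, exact 95% interval 10.01 to 19.2) against 15.3% of remaining peaks (interval 13.8 to 16.9), a difference of -1.11 percentage points (Newcombe 95% interval -5.27 to 4.08). Exons held 9 members (3.75% against 3.19%). No member was at a transcription end site (TTS), with an exact 95% interval up to 1.53%, against 37 remaining peaks (1.73%). Over 13 position measures, Fisher's exact test (two-sided) gave Benjamini-Hochberg adjusted p-values of 0.591 to 1. The TTS class had the smallest unadjusted p by this exact test, 0.0468 (adjusted p = 0.591), with a difference of -1.73 points (Newcombe 95% interval -2.38 to -0.0889). Peaks of a library are not replicates, so these p-values describe this peak list, and intervals cover counting error only.

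The median distance to the nearest TSS was 24.8 kb for the highest-scoring peaks (quartiles 3.63 and 55.6 kb) and 17.9 kb for the remaining peaks (quartiles 2.69 and 54.4 kb). Within 1 kb of a TSS were 16.2% of the members against 19.7% of the remaining peaks, within 10 kb 35.8% against 38.6%, within 50 kb 70.8% against 73.4%, and within 100 kb 87.9% against 87.0% (Fisher's exact test, adjusted p = 0.591, 0.803, 0.803 and 0.899 by distance). Among non-promoter peaks 42.2% of members and 37.9% of remaining peaks lay upstream, a difference of 4.35 points (interval -2.58 to 11.5, Fisher's exact test, adjusted p = 0.591). In intron 1 lay 43 of the 102 intronic members (42.2% against 40.8%, Fisher's exact test, adjusted p = 0.902). Another peak lay within 10 kb of 10.8% of members and 10.9% of remaining peaks (Fisher's exact test, adjusted p = 1).

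**Figure D3:**
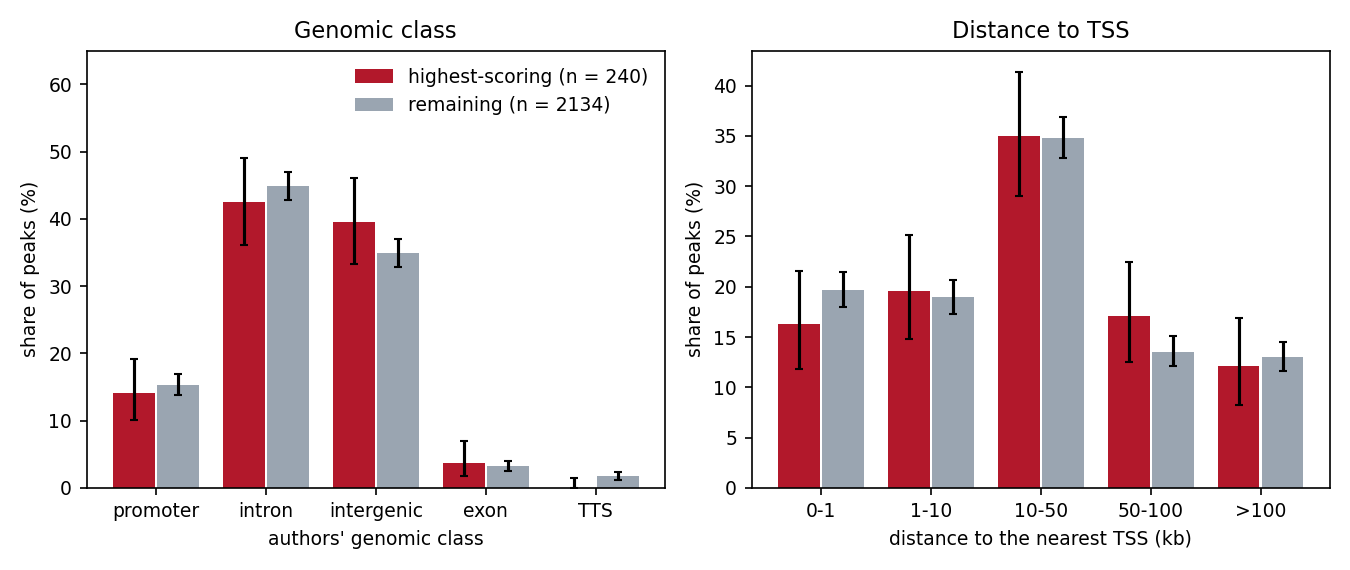
Share of peaks in percent by the authors' genomic class (left) and by distance to the nearest TSS in kb (right), for the 240 highest-scoring and the 2134 remaining peaks. Bars carry exact 95% intervals, which overlap between the groups in every class and distance bin.

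The farthest members lay 448.8 kb upstream of Mnd1-ps, 424.3 kb upstream of Cntn5 and 282.8 kb upstream of Tank, which encodes an adaptor of TRAF and NF-kB signalling. In all, 29 members were more than 100 kb from a TSS. Assignment to the nearest TSS also passes over the gene a peak lies in. By the annotation's gene names, 32 of the 102 intronic members (31.4%) were inside a gene other than their nearest one. The count was 240 of 958 for remaining intronic peaks (25.1%). These counts include differences of name alone, as for a member of score 179 placed in Pakap and assigned to Akap2, which RefSeq joins. Near most members lay few genes, with a median of 2 protein-coding genes within 50 kb, the same as for the remaining peaks. The assignments below name the nearest TSS and do not show which gene, if any, responds to a peak. Expression was not measured here.

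The 240 members were nearest to 233 genes. Of 21883 protein-coding genes, 188 were the nearest gene of a member, which is 0.859% of all and 11.4% of the 1656 that had any peak. The 30 gene lists used here hold 1002 distinct genes, of which 37 (3.69%) had a member, by 39 peaks. Of the 238 listed genes with any peak the share was 15.5%. Counts per list are descriptions to be read beside 0.859% and 11.4%, and no list was tested. The lists were chosen with earlier results of these data known. Listed genes also had a peak of any score more often, 238 of 1002 against 1656 of 21883 protein-coding genes. A share above 0.859% therefore does not show that a list is favoured among the members.

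**Figure D4:**
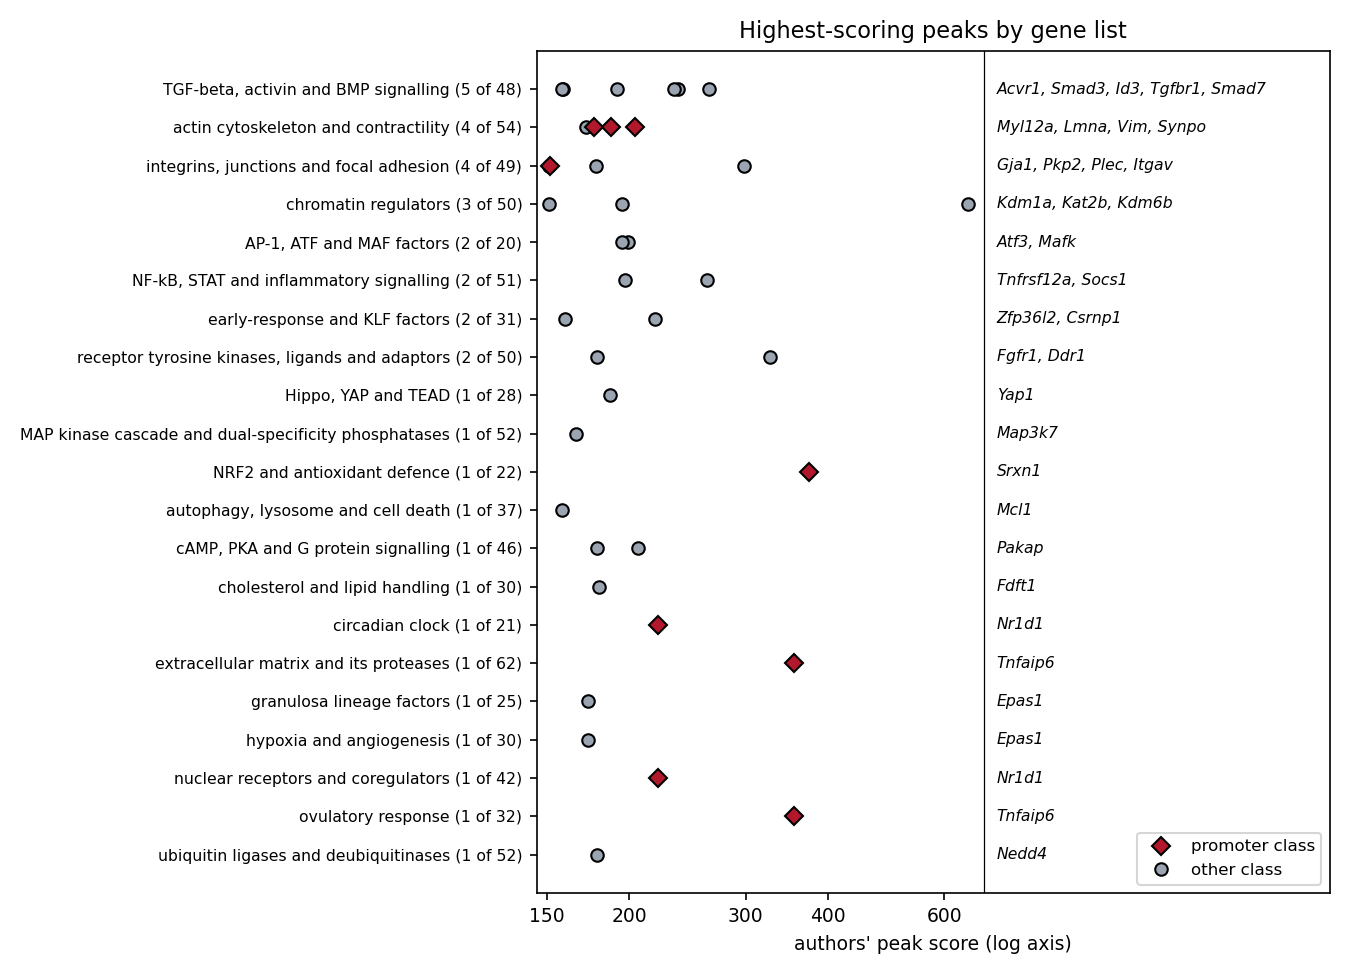
Peak score (log axis) of each highest-scoring peak whose nearest gene is in a gene list, 1 row per list shown with the number of its genes that have such a peak, with promoter peaks set apart from others and gene names at the right. The top row, TGF-beta signalling, has 5 of 48 genes and no promoter peak. In the actin cytoskeleton list 3 of the 4 peaks are promoter peaks, those of Myl12a, the lamin gene Lmna and the intermediate filament gene Vim. With the limit at the 80th percentile the adhesion list has more genes than TGF-beta signalling, 8 against 6.

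Genes of TGF-beta, activin and BMP signalling had the highest count of the lists at this score limit, 5 against 4 for the next lists. With the limit at the 80th percentile the adhesion list had 8 genes and this list 6. In this pathway, ligands bind paired kinase receptors, which phosphorylate SMAD proteins, and in the follicle it carries signals of activin, of BMPs and of the oocyte. Of the 48 genes on this list, 5 were nearest to a member (10.4%, exact 95% interval 3.47 to 22.7), out of 11 with any peak (45.5%). Among receptors, Acvr1, a type I receptor of BMPs and activin, had a peak scored 264 at 23.0 kb upstream, inside intron 1 of Upp2. Tgfbr1, the type I receptor of TGF-beta, had 2 members of score 192 and 159, 42.3 and 59.3 kb upstream and both in introns of Col15a1. Smad3, the transducer of activin and TGF-beta, had an intergenic peak scored 237 at 35.9 kb upstream. Smad7, the inhibitory SMAD, had a peak scored 158 at 25.0 kb upstream. Id3, a BMP-induced inhibitor of helix-loop-helix factors, had a peak scored 234 at 26.6 kb upstream. All 6 peaks lay upstream of the TSS and outside the promoter class. The list does not hold every gene of the pathway, and its counts leave out 2 genes with a member. Twsg1, a secreted modulator of BMPs, had the intergenic peak of score 1277 at 10.6 kb upstream. Bmp8a, a BMP ligand, had a peak at the limit, 30.5 kb upstream and inside Macf1.

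The actin cytoskeleton list had 4 of 54 genes with a member (7.41%), of 14 with any peak. The authors class 3 of these 4 peaks as promoter peaks, those of Myl12a, Lmna and Vim. Lmna and Vim are lamin and intermediate filament genes, which the list also holds, so these counts are not about actin alone. Myl12a, which encodes a regulatory light chain of myosin, had a promoter peak of score 204 centred 199 bp upstream, with the AP-1 letters shown above. Lmna, which encodes the nuclear lamins A and C, had a peak of score 188 that the authors class as promoter and place 10.3 kb upstream of the TSS they name. It covered part of the window of another annotated TSS of Lmna, and a second, lower peak of score 112 lay 331 bp downstream of the TSS they name. Vim, which encodes the intermediate filament vimentin, had a promoter peak of score 177, and Synpo, an actin-binding protein, an exonic one of score 172. Further cytoskeletal genes outside the list were Syne2, which links the nucleus to actin and had members of 172 and 154 in intron 1 of 115, and Tes, which encodes a LIM protein of focal adhesions, with an intergenic peak scored 354 at 54.5 kb downstream.

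Junction and adhesion genes were represented as well. The adhesion list had 4 of 49 genes with a member (8.16%), of 20 with any peak. Gja1, which encodes connexin 43, the main gap junction protein between granulosa cells, had an intergenic peak of score 298 at 205.0 kb downstream and lower peaks of 99 and 54. Pkp2, the desmosomal plakophilin 2, had a peak in intron 1 of 12 that scored 178. Plec, which encodes the cytolinker plectin, had a promoter peak of score 152, and Itgav, the integrin alpha V gene, a peak of score 151 at 9.45 kb upstream.

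Of the 20 AP-1, ATF and MAF genes 2 had a member (10%), of 7 with any peak. Atf3, a stress-induced partner of JUN, had a peak of score 199 at 41.1 kb upstream, which covered the promoter window of the noncoding gene D730003I15Rik with the AP-1 letters shown above, and a peak of score 93 in its own exon 1. Mafk, a small MAF protein, had a peak in intron 1 of 2 that scored 195. Fos, Jun and the other genes of this list had no member. Among 31 early-response and KLF genes, Csrnp1, an early-response nuclear protein, had a member of score 160 in intron 1 of 4, where an alternative promoter holds 2 copies of the AP-1 letters. Zfp36l2, which encodes an mRNA-destabilising zinc finger protein, had a member of score 219 lying 38.9 kb downstream. These were 2 of 31 early-response and KLF genes (6.45%), of 14 with any peak. Nr1d1, the clock repressor REV-ERB alpha, was the single member gene among 42 nuclear receptors and coregulators (2.38%) and among 21 clock genes (4.76%), with a promoter peak of score 221. Epas1, the hypoxia factor HIF-2 alpha, had a peak in intron 1 of 15 that scored 173. It was the single member gene of 25 granulosa factors (4%, 12 with a peak) and of 30 hypoxia genes (3.33%, 7 with a peak).

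Chromatin regulators had 3 of 50 genes with a member (6%). Kdm1a, the histone demethylase LSD1, had the fourth highest score of all peaks, 652, in intron 7 of 18. Kat2b, the histone acetyltransferase PCAF, had a peak in intron 1 of 17 that scored 195, and Kdm6b, a demethylase of histone H3 lysine 27, a peak at the limit in intron 1 of 22. Tbl1xr1, a subunit of the NCoR corepressor complex outside the list, had an intergenic peak scored 322 at 123.6 kb upstream.

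Receptor, kinase and cytokine signalling genes were each represented by few members. Fgfr1, a receptor of fibroblast growth factors, had an intergenic peak scored 327 at 53.1 kb upstream, and Ddr1, a collagen receptor kinase, a peak in intron 1 of 16 that scored 179 (2 of 50 receptor kinase genes, 4%). Map3k7, the kinase TAK1, had a peak scored 166 at 215.9 kb downstream (1 of 52 MAP kinase genes, 1.92%). Tnfrsf12a, the receptor of the cytokine TWEAK, had a peak in intron 1 of 3 that scored 262, 628 bp downstream of its TSS. Socs1, a feedback inhibitor of JAK kinases, had a peak of score 197 (2 of 51 NF-kB and STAT genes, 3.92%). Yap1, the effector of the Hippo pathway, had a peak in intron 1 of 7 that scored 187 (1 of 28, 3.57%). Pakap is the RefSeq locus that joins the annotation's Palm2 and Akap2 and that includes an anchor of protein kinase A. It had members of 206 and 179 and 3 lower peaks (1 of 46 cAMP genes, 2.17%).

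The lists of metabolic and protein turnover genes had 1 member gene each. They do not hold every gene of their function. Mkrn1 (297), a ubiquitin ligase gene, and Kbtbd7 (265), which encodes a ubiquitin ligase adaptor, had members and were not counted in them. Fdft1, which encodes squalene synthase of the cholesterol pathway, had a peak of score 180 in exon 3 of 10 (1 of 30, 3.33%). Nedd4, a ubiquitin ligase, had a peak in intron 6 of 28 that scored 179 (1 of 52, 1.92%). Mcl1, an antiapoptotic BCL2 relative, had a peak scored 158 at 5.75 kb downstream besides a lower one of 123 (1 of 37, 2.70%). Srxn1 was the single member gene among the 22 genes of the antioxidant list (4.55%), of which 9 had any peak. Outside the lists, the redox enzyme genes Glrx (174) and Msra (168) and the cholesterol synthesis gene Msmo1 (151) also had members.

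The ovulatory list, in which 22 of 32 genes had a peak of any score, had 1 gene with a member (3.12%), Tnfaip6 with a score of 355. It made up 4.55% of those 22 genes, against 11.4% over all genes with a peak, and the difference was not tested. The count became 4 with the limit at the 80th percentile and 0 without the highest 1% of scores. Other lists also lay below 11.4%, such as ubiquitin ligases (7.69%), granulosa factors (8.33%) and nuclear receptors (8.33%). Tnfaip6 was also the single member gene among 62 matrix and protease genes (1.61%). Of 17 steroid synthesis genes, 9 had a peak and none had a member, which allows a share of up to 17.6%. Nor had any of the 31 PI3K, AKT and FOXO genes (7 with a peak, up to 11.2%) or the 37 WNT and Notch genes (8 with a peak, up to 9.49%). The markers of other cell types that the sample could hold had no member either, with 0 of 18 theca, stroma and muscle genes, 0 of 15 endothelial, 0 of 15 leukocyte and 0 of 15 oocyte genes. These counts allow shares of up to 16.7% for the first list and 20% for each of the others. In these 4 lists, 2 genes had a peak of any score. All 7 limits lie above the 0.859% of all protein-coding genes, so lists of these sizes cannot show an absence. The lists also leave genes out. Lgr4, a receptor of R-spondins in WNT signalling, was in no list and had a member of score 156 in intron 1 of 17.

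Between ranks 12 and 40, scores ran from 386 to 268, and most genes were in no list. Nt5dc3 had the highest-scoring promoter peak, 386. Gfpt2, which encodes a rate-limiting enzyme of hexosamine synthesis, had 358 in intron 5 of 18, and Sfxn1, which encodes a mitochondrial serine transporter, 351 in intron 8 of 10. Elmo1, which encodes an engulfment and cell motility protein, had 354 in intron 15 of 21. Dab2, which encodes an endocytic adaptor, had 302 in intron 1 of 14. Mkrn1, which encodes a ubiquitin ligase, had an intergenic peak of 297, Hibadh, an enzyme of valine breakdown, an intronic one of 297, and Fars2, the mitochondrial phenylalanine tRNA synthetase gene, one of 289. Trim8 (280), Agfg2 (316), Hpf1 (307), Hrob (363), Kcnv2 (287) and Nudt13 (268) were further protein-coding genes of these ranks. The long noncoding RNA genes 1810053B23Rik and Gm10941 (282 each, intergenic) and 1110036E04Rik (272, intron 1 of 2) also stood there.

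The 34 promoter members had a median score of 185, against 184 for members of the other classes, and 27 of them were at protein-coding genes. Besides those named above, Rtn4, which encodes the endoplasmic reticulum shaping protein Nogo, had a promoter peak of 307 and a second one of 147 further upstream. Signalling genes were Stk40 (292), Spag9, a scaffold of JNK kinases (248), Rap2a, a RAS-related GTPase (189), Ppp1r11, a phosphatase 1 inhibitor (190), and Mark2, a cell polarity kinase (165). Genes of transcription and RNA processing were Plagl1, an imprinted zinc finger factor (160), Gtf2a1, a subunit of TFIIA (164), Thrap3 (155), Rbm25 (200), Zkscan1 (185) and Zfp869 (197). Kbtbd7, which encodes a substrate adaptor of CUL3 ubiquitin ligases, had 265. Mitochondrial genes were Ndufa5, a subunit of respiratory complex I (197), and Slc25a45 (185). Epb41l1, a membrane skeleton protein (163), Tfg, which acts in export from the endoplasmic reticulum (163), and Wdfy2, an endosomal protein (160), completed the protein-coding ones. The noncoding promoter members were Gm15867 (185), Mir5098 (184), 4930554I06Rik (176), Mir1956 (176), Alkbh3os1 (171), 3110056K07Rik (163, classed by the authors under Arid4a) and Snhg12 (156). For Epb41l1 the authors' distance column gives 54.6 kb, because the class names another TSS than the distance does, as for Lmna. The other 32 promoter members lay within 1 kb of the named TSS.

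Several genes had more than 1 member. Tmem182, 1700016G22Rik, Tomm20, Pakap, Tgfbr1, Syne2 and Gm5420 had 2 each. The closest such pairs were those of Syne2, 6.84 kb apart, and 1700016G22Rik, 7.66 kb apart. At Tomm20, which encodes a receptor of mitochondrial protein import, members of 223 and 187 lay 37.4 kb apart, and a promoter peak of 127 was below the limit. At least 1 further peak of any score was assigned to the nearest gene of 34.2% of members, against 30.2% of remaining peaks.

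Noncoding genes were nearest to 47 members, 38 of them at long noncoding RNA genes, 8 at microRNA genes and 1 at a pseudogene. A protein-coding nearest gene was thus found for 80.4% of members against 84.7% of remaining peaks (Fisher's exact test, adjusted p = 0.591). The highest such scores were at LOC100043315, B930059L03Rik (322, in its exon), Mir703 (301) and Platr26 (301). Pvt1, a long noncoding RNA gene next to Myc, had a peak of 243 in intron 1 of 8, and Snhg12, which hosts small nucleolar RNAs, a promoter peak of 156. Among microRNA genes, Mir181c had an intergenic peak of 275 lying 13.2 kb upstream and Mir302b one of 161 lying 24.7 kb upstream. For Mir5098 (184, on chromosome 8) and Mir8115 (151, on chromosome 11) the RefSeq table gives chromosome 5 as the gene's place, so these names depend on the annotation.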

How the data were processed

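The peak list of 1 library was used. HOMER's annotatePeaks program had annotated narrow peaks, per the file headers. The submitters' processing notes name MACS2 2.2.7.1 and the build mm10, besides BWA, deepTools 3.5.1 and Trim Galore. The deposited peak score is a whole number per peak whose scale is not stated. Other deposited values are positions and signed distances in bp. For the peak threshold and the control library: not given in the sources used here.

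Members, lists and tests were chosen with earlier results of these data known. Nearest genes were matched to RefSeq (GRCm38.p6, the assembly mm10 names) by accession (2361 peaks), symbol (11) or older symbol (1), and 1 peak was unmatched. Motifs were searched in RefSeq promoter windows, and the overlap of 150 bases was set after the files had been seen. Position shares were compared with Fisher's exact test, adjusted over 13 measures, on code tested on simulated data. Genes named are ranks 1 to 40, genes with several members, promoter members and listed genes. Some genes and lists that this rule names are not reported here. Pvt1 and Mir302b were chosen after their values were seen. Motifs in whole peaks were not searched, as no genome sequence was used. Python 3.11.15, numpy 2.4.6, scipy 1.17.1, pandas 2.3.3, matplotlib 3.10.9 and statsmodels 0.14.6 were used.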

Additional observations from a re-analysis of the deposited data

How the results depend on the processing

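None of 68 alternative values of the 13 position measures passed the threshold (Fisher's exact test, lowest adjusted p = 0.286), 55 kept their direction and 13 reversed. As differences of highest-scoring minus remaining peaks in percentage points, the reversed values were as follows. At the 95th percentile they were 0.705 for promoters, 1.05 for peaks within 50 kb and -3.87 for upstream peaks. At the 80th percentile they were 3.55 for introns, -1.87 for intergenic peaks, -0.132 for exons, -0.927 for upstream peaks and 0.0137 for neighbouring peaks. For neighbouring peaks they were also 0.291 without the highest 1% of scores, 6.12 with neighbours within 50 kb and 0.774 with protein-coding nearest genes only. For promoters the value was 0.366 against remaining peaks at or above the median score, and for introns 0.0508 with protein-coding nearest genes only. The cause was not tested. The 37 listed genes became 22 at the 95th and 62 at the 80th percentile by construction, and 32 both without the highest 1% and within 50 kb. Of the alternatives for single lists, 33 of 120 moved a count by over 1.5 times, or to or from 0. The alternatives of window overlap, covered part and counting by peak were chosen after seeing the data. Windows covered over all 300 bases gave AP-1 letters in 90.9% for the highest-scoring peaks and the cAMP response element in 4.26% for the remaining peaks. With a free central base the AP-1 shares were 69.0% and 32.5%, with an overlap of 1 base 55.3% and 23.5%, in the covered part alone 65.5% and 28.7%, and by peak 73.1% and 32.5%. No paired analysis was possible because each group has 1 library and peaks come from only 1 of them. With no read counts, the precision of a single score is unknown.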

Other observations

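Some members lay near or in genes of the endoplasmic reticulum stress response and the secretory pathway. These genes were picked by hand after their values were seen, from no fixed list, and no count or test stands behind them as a group. Ddit3 and Atf3 are given in the report. Xbp1, the spliced transcription factor of the unfolded protein response, had a peak in intron 1 of 4 that scored 155 and lay 1.21 kb downstream. Tmbim6, an inhibitor of cell death at the endoplasmic reticulum, had a peak in intron 2 of 10 that scored 186. Furin, a protease of the secretory pathway, had a peak scored 179 at 33.0 kb upstream. Creb3l2, a membrane-bound factor related to ATF6, held a peak in intron 5 of 11 that scored 165 that was assigned to Dgki.

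Counting the gene a peak lies in would add genes to the lists. Of the members, 6 lay inside a listed gene and were assigned to another, in 5 genes that had no member by nearest TSS. Map3k5, the kinase ASK1, held a peak in intron 18 of 29 that scored 210. Otud7b, a deubiquitinase, held a peak of 215 in its last exon, and the RAS pathway genes Rasal2 and Ksr1 each held a peak of 151 in an intron. Col15a1, a collagen gene, held both peaks assigned to Tgfbr1.

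Members were found on all 19 autosomes, at 5.84% of the peaks of chromosome 7 to 12.7% of those of chromosome 14. None of the 15 peaks on the X chromosome was a member, which allows a share of up to 20%.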
